A study of Mus musculus with 23 samples.

Results

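The genes described are those named for the coenzyme Q (CoQ) pathway in mouse liver: Coq2, Coq3, Coq4, Coq5, Coq6, Coq7, Coq8a, Coq8b, Coq9 and Coq10a. They are 10 of the 22852 genes listed in both deposited tables, and they were chosen by gene symbol. The set was picked because the counts of Coq8a were lower in LKO than in control livers, so for these 10 genes the difference between genotypes is a description. Counts of the 10 genes past a threshold between genotypes are printed beside the share over all genes for reference, and nothing is read from them. The livers came from 6 control and 6 LKO females and from 6 LKO and 5 control males. Genotypes are labelled B100-Control and B100-LKO, so B100 is common to every animal, and per the title of the series LKO is an ablation of Cpt1a in the liver. Every animal was on a diet labelled WD for 16 weeks, and every liver was taken in the fed state, so no group on another diet or in the fasted state is part of these comparisons. The floxed allele and the Cre driver are not given in the sources used here. The females stand in one table and the males in the other, so sex and table cannot be told apart.

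CoQ is a lipid of the inner mitochondrial membrane that carries electrons from complexes I and II, and from the dehydrogenase that collects electrons from fatty acid oxidation, to complex III. It is made by joining a polyprenyl tail, which comes from the mevalonate pathway, to a benzoate ring that is then hydroxylated and methylated by a complex of COQ proteins on the matrix side of that membrane. In liver the same mevalonate intermediates also feed cholesterol synthesis.

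Library totals ran from 14224665 to 19626662 counts. Levels are given as CPM, counts relative to the library total after scaling by the trimmed mean of M values (TMM) over all 23 libraries. Where genes are compared with each other, the deposited FPKM are used, which are also divided by gene length. Cpt1a, the targeted gene, was 387.7 ± 59.2 CPM (SD, n = 6) in control females and 75.9 ± 8.88 (SD, n = 6) in LKO females. In males it was 357 ± 50.4 CPM (SD, n = 5) in controls and 63.1 ± 20.3 (SD, n = 6) in LKO. The hepatocyte markers Alb, Apoa1, Ttr, Serpina1c, Tat, Cyp2e1 and Cps1 summed to between 55120 and 106400 CPM in every library. The labels number the mice but do not say how the animals were related or housed, so the p-values given measure the spread between these samples.

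Coq8a encodes an atypical kinase-like ATPase of the UbiB family that supports the COQ complex, and loss of the human gene causes CoQ deficiency with ataxia. In the tables it lies on chromosome 1 from 179992803 to 180027167 on the minus strand, as a protein-coding gene (mm39 is the build named in the submitters' processing notes). RefSeq gives it more than one start, and the windows from 250 bases before to 50 after 2 of these starts are printed here because Coq8a carried the difference for which the set was chosen. Both are read from GRCm38.p6, a different build from that of the tables, on the minus strand, at chr1:180195971-180196270 and chr1:180193436-180193735. Capitals mark CCAAT boxes (CCAAT or its reverse complement ATTGG) and the AGGTCA hexamer that nuclear receptors bind (or its reverse complement TGACCT), searched on both strands.
Coq8a window 1: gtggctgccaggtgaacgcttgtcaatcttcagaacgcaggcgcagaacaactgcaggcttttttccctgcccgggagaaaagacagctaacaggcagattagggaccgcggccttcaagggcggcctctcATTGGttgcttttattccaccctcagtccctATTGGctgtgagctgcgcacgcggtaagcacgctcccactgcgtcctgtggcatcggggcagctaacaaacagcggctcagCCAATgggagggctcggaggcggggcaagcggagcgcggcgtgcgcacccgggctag
Coq8a window 2: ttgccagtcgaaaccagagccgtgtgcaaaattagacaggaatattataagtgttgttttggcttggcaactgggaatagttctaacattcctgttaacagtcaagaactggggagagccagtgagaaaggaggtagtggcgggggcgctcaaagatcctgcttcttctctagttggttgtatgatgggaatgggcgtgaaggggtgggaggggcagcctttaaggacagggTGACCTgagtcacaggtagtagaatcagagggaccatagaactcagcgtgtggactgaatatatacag
The first window held 3 CCAAT boxes, beginning at -119, -88 and -7 relative to the start, and no AGGTCA. The second held 1 AGGTCA match at -18 and no CCAAT box. Of all 32851 such windows in the RefSeq table, 37.4% held a CCAAT box and 16.3% an AGGTCA hexamer. The direct repeat of AGGTCA with 1 base of any kind between, which PPAR and RXR bind, was in 0.0396% of all windows and in 0 of the 11 windows found for 8 of the 10 genes. These are matches of letters only.

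In females, Coq8a was lower in every LKO liver than in any control liver. Control females 1 to 6 had 349.3, 209.7, 216.7, 239.7, 505.3 and 503.4 CPM. LKO females 1 to 6 had 202.9, 157.7, 158.2, 124.1, 179.9 and 202.3 CPM. The controls fell into 3 livers near the LKO range and 3 well above it, whereas the 6 LKO values lay close together, and the gap between the lowest control and the highest LKO liver was small. The group means were 337.3 ± 138.8 CPM (SD, n = 6) in controls and 170.9 ± 30.4 (SD, n = 6) in LKO, a log2 difference of -0.98 (SE 0.23), or 49.4% less. Leaving out 1 library at a time gave log2 differences from -1.09, without control female 2, to -0.83, without control female 6. Coq8a was the 1 of the 10 genes whose female groups did not overlap, beside 1.58% of 13679 genes (0.563% with LKO lower). The count of the 10 genes past an adjusted p of 0.05 in edgeR's quasi-likelihood fit was 1, which is Coq8a, beside 1.42% of 13684 genes (0.49% lower in LKO). Both counts restate the fall for which the set was picked and are no support for it.

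In males the values were lower on average in LKO as well, but the groups overlapped. Control males 1, 2, 3, 4 and 6 had 266.5, 323.5, 228.8, 473.3 and 199.4 CPM, and LKO males 1 to 6 had 252.6, 271.9, 133.4, 161.2, 269.3 and 238.1. Control male 4 was far above the rest, and each of the 6 LKO males was below the control mean while 4 of them lay inside the control range. The means were 298.3 ± 108.3 CPM (SD, n = 5) and 221.1 ± 59.1 (SD, n = 6), a log2 difference of -0.43 (SE 0.23). Without control male 4 the difference was -0.21, and over the 11 fits that left out 1 library it ran from -0.55 to -0.21. The count past the threshold in males was 0 of 10, beside 0.00724% of 13805 genes, and it too comes from the contrast used for the choice. The female difference minus the male difference was -0.55 (SE 0.35) for Coq8a.

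**Figure D1:**
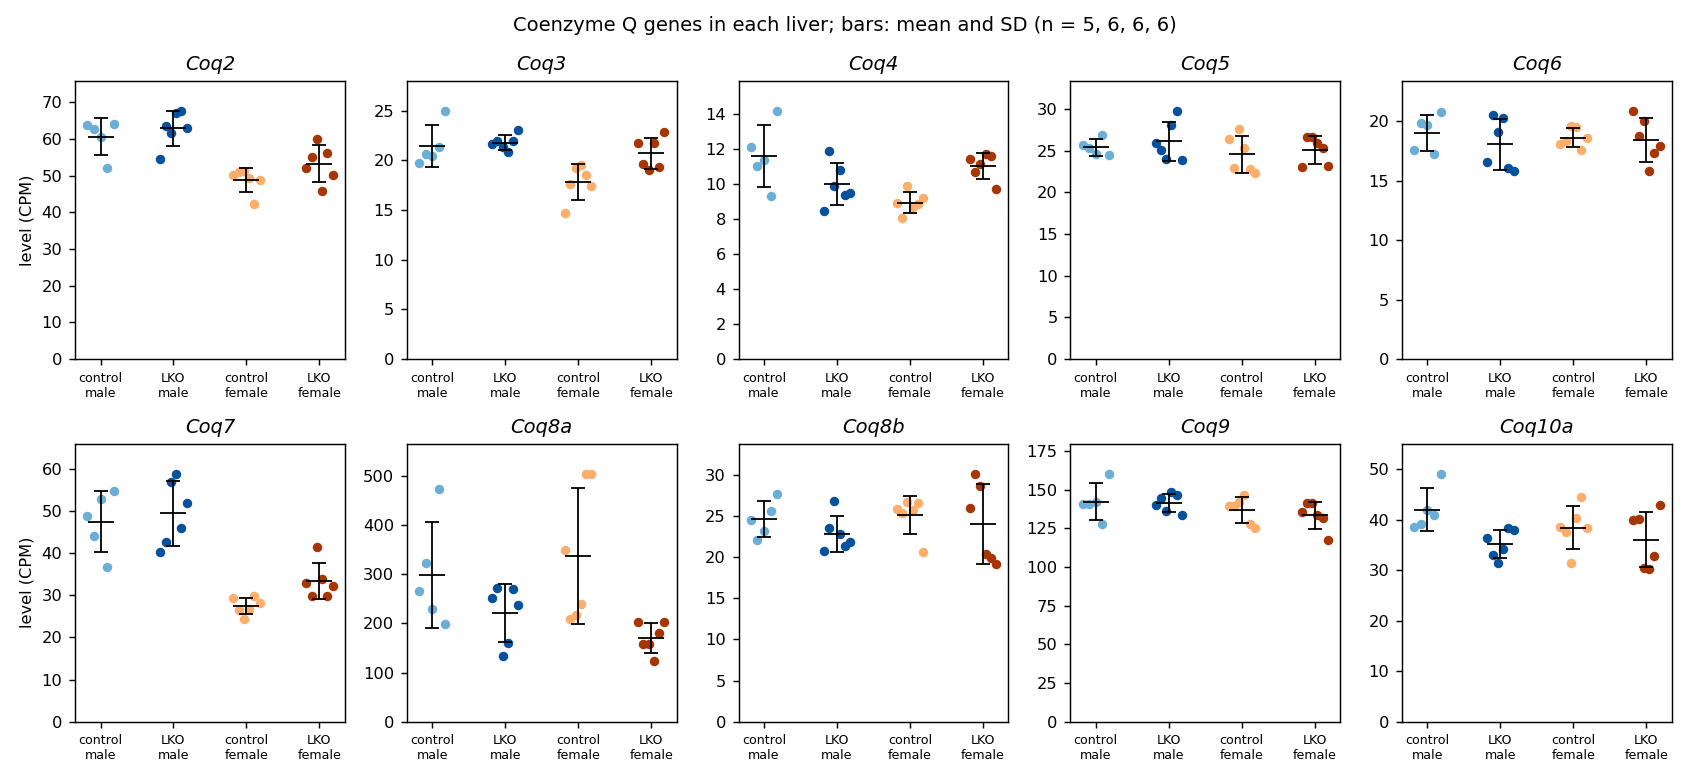
Levels of the 10 genes in each of 23 livers, one panel per gene, in CPM from 0 with its own scale. Points are livers, and bars are group means with SD. Coq8a shows no overlap between control and LKO females, with 3 control females at 349.3 CPM or more, and Coq7 is lower in control females, at most 29.8 CPM, than in any control male.

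Coq8a had the widest spread of the 10 genes in control females and in both male groups. Its coefficient of variation (SD over mean of the CPM) was 41.1% in control females, 36.3% in control males, 26.7% in LKO males and 17.8% in LKO females, while the other 9 genes lay between 3.35% and 20.2% in the 4 groups, the highest being Coq8b in LKO females. Counts of Coq8a were 2328 to 7703 per library, so counting error is small beside this spread. Markers of other liver cells were summed in the same libraries, since in bulk tissue fewer cells of a type and less RNA per cell cannot be told apart. The hepatocyte sum was 86490 to 106400 CPM in control females and 61880 to 97870 in LKO females. Alb made up most of it, at means of 62000 and 52000. Cyp2e1 had means of 8630 and 8680, and the other hepatocyte markers had lower means in LKO females. The cholangiocyte list (Krt7, Krt19, Epcam, Spp1; 4 of 4 measured) did not overlap in females, at 39.7 to 49.4 CPM in controls and 51 to 86.6 in LKO, of which Spp1 made up most, at means of 38 and 60.3. The stellate and fibroblast list (6 of 6) ran from 207.8 to 265.9 and from 195.7 to 373 CPM, and the macrophage list (7 of 7) from 233.9 to 412.1 and from 285.8 to 422.2. Dcn was the largest part of the former, at means of 132 and 140, and Col1a1 stood at 16.8 and 34.7. Every gene of that list had a higher mean in LKO females. Clec4f made up most of the macrophage sum, at 247 and 237. Means were higher in LKO females for Gpnmb (1.19 and 11.2), Trem2 (3.21 and 8.06) and Cd68 (26.7 and 35). They were lower for Marco (28.3 and 18.5), Timd4 (12.6 and 10.9) and Adgre1 (26.7 and 25.8). T and B cell markers (5 of 5) summed to 4.97 to 9.38 and 4.66 to 29.2 CPM in the female groups, and endothelial markers (5 of 5) to 158.2 to 212.8 and 147.3 to 194.2. Striated muscle markers (3 of 5 in both tables) reached at most 3.07 CPM and adipocyte markers (4 of 4) at most 6.56 in any library. Myl1 was at 0 in all control females, Ucp1 in all control males and Lep in all LKO males. The part of these cell types in the Coq8a values was not tested.

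Coq8b is the paralog of Coq8a in the UbiB family. On the log2 scale LKO minus control was -0.07 (SE 0.12) in females and -0.11 (SE 0.09) in males. The female difference was smaller than its SE and the male difference slightly larger. Control females ran from 20.6 to 26.7 CPM with a median of 25.8, and LKO females from 19.2 to 30.1 with a median of 23.1. Per length, Coq8a made up 92.5% ± 2.9 (SD, n = 6) of the summed FPKM of the pair in control females and 88% ± 2.9 (SD, n = 6) in LKO females. In males the share was 92.1% ± 2.6 (SD, n = 5) and 90.4% ± 3.59 (SD, n = 6), so Coq8a was the main UbiB transcript of the pair in every group.

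The enzymes that build and modify the ring are Coq2, Coq6, Coq3, Coq5 and Coq7. Coq2 encodes the transferase that joins the tail to the ring, Coq6 a flavin-dependent hydroxylase, Coq3 the O-methyltransferase, Coq5 the C-methyltransferase and Coq7 the di-iron hydroxylase that acts before the last methylation. In females the log2 differences, LKO minus control, were 0.12 (SE 0.08) for Coq2, -0.02 (SE 0.08) for Coq6, 0.21 (SE 0.08) for Coq3, 0.03 (SE 0.08) for Coq5 and 0.27 (SE 0.09) for Coq7. Coq7 ran from 24.5 to 29.8 CPM in control females, median 27.4, and from 29.7 to 41.4 in LKO females, median 32.5, so the groups met only at their edges. For Coq3 the control females ran from 14.7 to 19.6 CPM, median 18.1, and the LKO females from 19 to 22.8, median 20.7. For both Coq3 and Coq7, 0 of 6 LKO females lay below the control mean.

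In males the same 5 genes stayed within 0.08 of zero on the log2 scale: 0.05 (SE 0.08) for Coq2, -0.08 (SE 0.10) for Coq6, 0.02 (SE 0.08) for Coq3, 0.04 (SE 0.08) for Coq5 and 0.06 (SE 0.13) for Coq7.

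Coq4 and Coq9 encode further proteins of the complex: COQ9 is a lipid-binding protein that presents the substrate to COQ7, and COQ4 is needed for the complex to assemble and act. The Coq4 differences had opposite signs in the sexes, at 0.30 (SE 0.08) in females and -0.22 (SE 0.12) in males, a difference of 0.52 (SE 0.14) between the sexes. Control females ran from 8.05 to 9.87 CPM, median 8.88, and LKO females from 9.70 to 11.7, median 11.2. Control males had 12.1, 11, 11.4, 9.32 and 14.2 CPM, and LKO males ran from 8.47 to 11.9, median 9.67. In females the groups overlapped only between the highest control and the lowest LKO liver, and in males 5 of 6 LKO livers lay below the control mean. Coq9 stood at -0.04 (SE 0.07) in females and -0.01 (SE 0.07) in males.

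Coq10a encodes a START-domain protein that binds CoQ and is needed for its use in respiration. In males its groups did not overlap: controls had 38.6, 39.1, 42, 41 and 49.2 CPM and LKO livers ran from 31.5 to 38.3, median 35.3. The log2 difference was -0.25 (SE 0.08), and Coq10a was the 1 of 10 genes without overlap in males, beside 1.74% of 13800 genes (1.06% with LKO lower). The gap between the lowest control and the highest LKO male was 38.6 against 38.3 CPM. In females Coq10a ran from 31.4 to 44.5 CPM in controls, median 38.5, and from 30.4 to 42.9 in LKO, median 36.4, a log2 difference of -0.09 (SE 0.10).

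Across the 10 genes the median log2 difference was 0.01 in females, with 5 positive and 5 negative, where the median of all genes tested was 0.01. In males the median was -0.04, with 4 positive and 6 negative, where that of all genes was 0.01. The summed FPKM of the 9 genes other than Coq8a was 108.7 ± 3.62 (SD, n = 6) in control and 110.2 ± 5.59 (SD, n = 6) in LKO females, and 122.5 ± 8.84 (SD, n = 5) and 119.5 ± 4.92 (SD, n = 6) in control and LKO males.

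**Figure D2:**
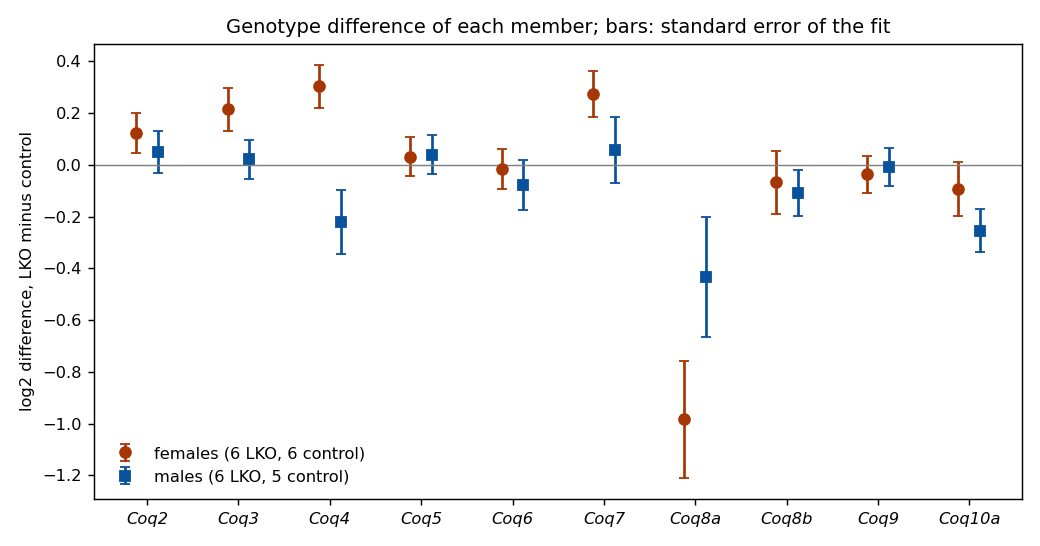
Log2 difference, LKO minus control, of each of the 10 genes in females (6 against 6) and males (6 against 5). Points are fitted differences and bars their standard errors. Coq8a is lowest in both sexes, at -0.98 and -0.43, and Coq4 lies above zero in females (0.30) and below it in males (-0.22).

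The comparison of the sexes is a different contrast from the genotype differences that chose the set, and it was tested. It uses the same libraries. Averaged over genotypes, 3 of the 10 genes differed between females and males in edgeR's quasi-likelihood test with Benjamini-Hochberg adjustment, all 3 lower in females, beside 29.2% of 14503 genes in either direction and 14.5% lower. Coq7 was 30.4 ± 4.41 CPM (SD, n = 12) in females and 48.5 ± 7.15 (SD, n = 11) in males, a log2 difference of -0.68 (SE 0.08, edgeR adjusted p = 4.85e-07), and 12 of 12 females were below the male mean. Coq2 was 51 ± 4.65 CPM (SD, n = 12) in females and 61.9 ± 4.73 (SD, n = 11) in males, at -0.28 (SE 0.05, edgeR adjusted p = 0.000402), with 12 of 12 females below the male mean. Coq3 was 19.3 ± 2.19 CPM (SD, n = 12) and 21.6 ± 1.42 (SD, n = 11), at -0.17 (SE 0.05, edgeR adjusted p = 0.0193), with 9 of 12 females below the male mean. Over both genotypes the sexes overlapped in all 10 genes, that is 0 of 10 without overlap beside 1.88% of 14503 genes. The count of 3 of 10 is close to the 29.2% of all genes in either direction, and nothing is read from it. Coq7, Coq2 and Coq3 each passed the threshold in all 23 fits that left out 1 library. Of the other ring enzymes, Coq5 stood at -0.05 (SE 0.05) and Coq6 at -0.0016 (SE 0.0587), and neither passed.

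Coq7 lies on chromosome 7 from 118108882 to 118132579 on the minus strand in the tables and overlaps no other listed gene. Its RefSeq window, printed because Coq7 had the largest sex difference of the 10 genes, is chr7:118533307-118533606 on the minus strand of GRCm38.p6, with capitals as above.
Coq7 window 1: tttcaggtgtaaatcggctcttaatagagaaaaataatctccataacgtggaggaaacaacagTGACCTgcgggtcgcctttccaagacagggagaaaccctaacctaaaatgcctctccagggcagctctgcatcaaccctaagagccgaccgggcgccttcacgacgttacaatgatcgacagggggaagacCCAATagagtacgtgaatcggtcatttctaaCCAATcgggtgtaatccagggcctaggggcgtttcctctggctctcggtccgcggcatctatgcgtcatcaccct
It held CCAAT boxes at -56 and -25 and an AGGTCA match at -187. Over the 11 windows of the set, 3 held a CCAAT box and 4 an AGGTCA hexamer.

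Within controls, Coq7 was 24.5 to 29.8 CPM in females, and control males 1, 2, 3, 4 and 6 had 48.9, 43.9, 52.7, 36.7 and 54.6. No control female reached any control male, and the log2 difference was -0.79 (SE 0.10, edgeR adjusted p = 0.000282). Within LKO livers Coq7 was 29.7 to 41.4 CPM in females and 40.2 to 58.8 in males, median 48.9, where 1 female overlapped the male range, at -0.58 (SE 0.11, edgeR adjusted p = 0.00299). Coq2 gave -0.32 (SE 0.08, edgeR adjusted p = 0.0152) in controls and -0.25 (SE 0.08, edgeR adjusted p = 0.0529) in LKO. Coq3 gave -0.27 (SE 0.09, edgeR adjusted p = 0.0581) in controls and -0.08 (SE 0.07, edgeR adjusted p = 0.496) in LKO. Coq4 was lower in control females than in control males, at -0.38 (SE 0.11, edgeR adjusted p = 0.0282), and stood at 0.13 (SE 0.10, edgeR adjusted p = 0.411) in LKO. In controls 3 of the 10 genes passed the threshold beside 18% of 13699 genes, and in LKO 1 of 10 beside 12.4% of 13778. The control and LKO livers enter both these values and the genotype differences above. The sex values of the genotypes were not tested against each other apart from the interaction. For the interaction, 0 of 14503 genes passed in edgeR (1874 at an unadjusted p under 0.05).

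Coq8a did not pass the test between the sexes, at -0.10 (SE 0.17, edgeR adjusted p = 0.717), with 254.1 ± 129.4 CPM (SD, n = 12) in females and 256.2 ± 89.8 (SD, n = 11) in males. The fits without 1 library gave -0.18 to 0.01. The other 6 genes also missed the threshold: Coq4 at -0.12 (SE 0.07), Coq9 at -0.07 (SE 0.05), Coq5 at -0.05 (SE 0.05), Coq10a at -0.05 (SE 0.07), Coq8b at 0.05 (SE 0.08) and Coq6 at -0.0016 (SE 0.0587). Hepatocyte marker sums were 59460 to 88620 CPM in control males against 86490 to 106400 in control females. Alb made up most of them, at means of 42800 and 62000. Means were also higher in control females for Tat (1510 and 2260), Cyp2e1 (7190 and 8630) and Cps1 (879 and 1890). They were lower for Apoa1 (12600 and 10700), Ttr (7870 and 7120) and Serpina1c (1230 and 824). The part of these markers in the sex differences was not tested.

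**Figure D3:**
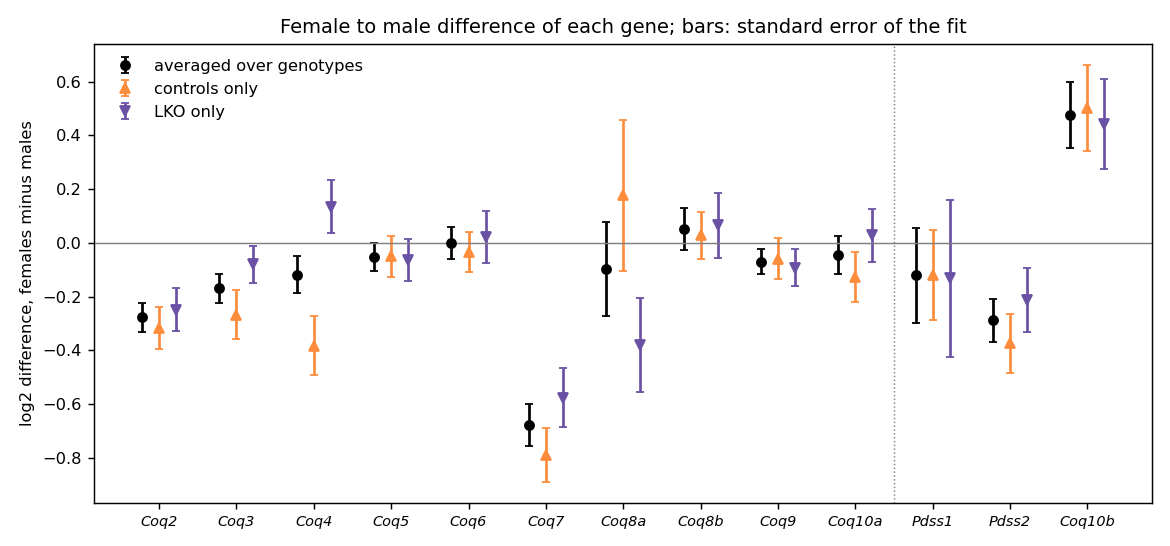
Log2 difference, females minus males, of the 10 genes and, right of the dotted line, Pdss1, Pdss2 and Coq10b, averaged over genotypes, in controls and in LKO livers, with standard errors. Coq7 lies at -0.68, -0.79 and -0.58 and Coq2 at -0.28, -0.32 and -0.25, while Coq4 lies at -0.38 in controls and 0.13 in LKO.

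Levels of the genes were compared with each other per length, as deposited FPKM. In control females the order of the means was Coq8a (63.2 ± 26.1, SD, n = 6), Coq9 (44.4 ± 2.66), Coq2 (18.4 ± 1.22), Coq10a (14.8 ± 1.65), Coq5 (8.02), Coq3 (5.89), Coq6 (5.87), Coq8b (4.46), Coq7 (4.23) and Coq4 (2.60). Coq8a and Coq9 overlapped there, with Coq8a above Coq9 in 3 of 6 livers, and the neighbours Coq2 and Coq10a, Coq3 and Coq6, and Coq8b and Coq7 also overlapped. In LKO females Coq9 came first with 43.1 ± 2.96 FPKM (SD, n = 6) and was above Coq8a, 31.8 ± 5.72 (SD, n = 6), in 6 of 6 livers. The rest of the order was the same as in control females except that Coq7, at 5.10, stood above Coq8b, at 4.24.

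In control males Coq8a led with 56.3 ± 20.6 FPKM (SD, n = 5) over Coq9 with 46.4 ± 3.83, in 3 of 5 livers. In LKO males Coq9 led with 46 ± 2.03 FPKM (SD, n = 6) over Coq8a with 41.5 ± 11.1, though it was the higher of the pair in only 2 of 6 livers. Coq7 stood sixth in both male groups, at 7.35 and 7.63 FPKM, against 4.23 and 5.10 in the female groups. Coq4 was last in all 4 groups, between 2.60 and 3.40 FPKM. Coq8a made up 35.6% ± 9.97 (SD, n = 6) of the summed FPKM of the 10 genes in control females and 22.3% ± 3.25 (SD, n = 6) in LKO females. In males the shares were 31% ± 8.68 (SD, n = 5) and 25.5% ± 5.49 (SD, n = 6).

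Livers of a group differ among themselves, and this spread was used to ask which of the 10 genes vary together. Group means were subtracted from log2(CPM + 1), and Pearson's r was taken over the 23 livers for each of the 45 pairs. These values are descriptions, and the points share libraries, their depth and their scaling. The median r was 0.02, and 24 of 45 pairs were above zero. The highest were Coq2 with Coq9 at 0.585 (Spearman's rho 0.659), Coq4 with Coq9 at 0.555 and Coq8b with Coq9 at 0.511. Only 4 pairs were positive in each of the 4 groups: Coq2 with Coq9, Coq6 with Coq9, Coq2 with Coq6 and Coq2 with Coq4.

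Over the pooled livers, the r of Coq8a was negative with 8 of the other 9 genes, but 1 of these 9 pairs, that with Coq8b, was negative in each of the 4 groups. Coq7 with Coq8a, for example, was at -0.997 in control males and 0.803 in control females, and Coq5 with Coq8a at 0.942 in control males. The pooled r was lowest with Coq9 at -0.597 (rho -0.509), and it was -0.411 with Coq7 and -0.376 with Coq2. It was positive with Coq10a, at 0.356. For Coq8a and Coq9 the r was -0.898 in control males, -0.888 in control females, -0.453 in LKO females and 0.143 in LKO males, and without the 2 livers farthest from the median of Coq8a the pooled r was -0.709. In control females the 2 livers highest in Coq8a, numbers 5 and 6, were the 2 lowest in Coq9, with 128 and 125.4 CPM where the others had 139.1 to 146.8. The r of Coq8a with the log2 total count of the library was -0.251, with the summed stellate and fibroblast markers -0.576 and with the cholangiocyte markers -0.517. The part of these in the pairs was not tested.

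**Figure D4:**
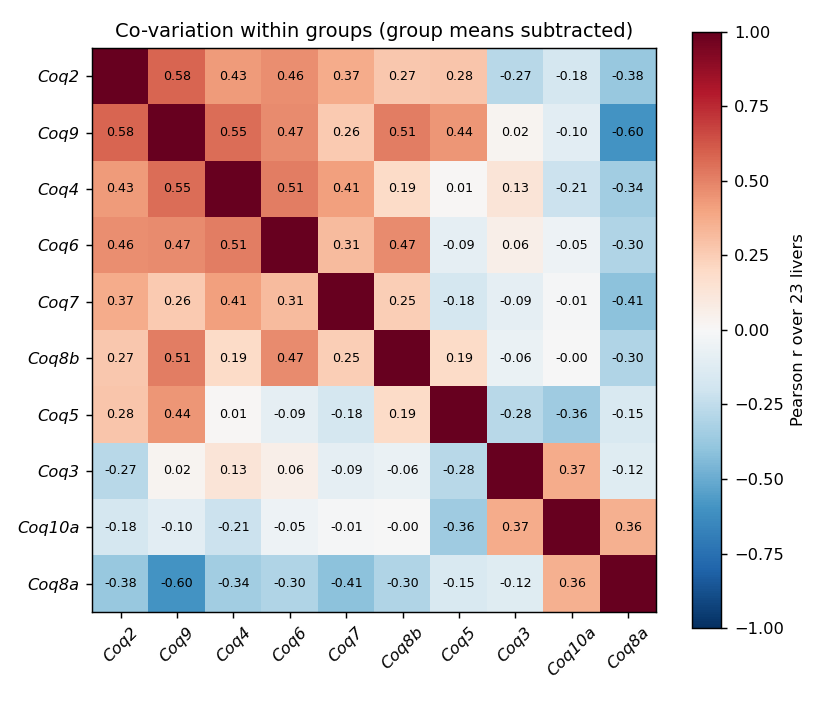
Pearson's r between the 10 genes over 23 livers after subtraction of group means, from -1 (blue) to 1 (red). Coq2, Coq9, Coq4 and Coq6 form a block of positive values (0.43 to 0.58 as drawn), and the pooled values of Coq8a are negative except with Coq10a.

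The same measure ranked 10133 other protein-coding genes averaging 50 or more counts per library, and the ones most like Coq8a within groups were Ddc (r = 0.897), Cldn1 (0.875), Dazap2 (0.849), Psen2 (0.844) and Lap3 (0.844). Ddc encodes aromatic amino acid decarboxylase, Cldn1 a tight junction claudin, Psen2 a catalytic subunit of gamma-secretase and Lap3 a leucine aminopeptidase. The most opposed were Nceh1 (-0.868), a neutral cholesterol ester hydrolase, Uck1 (-0.836), a uridine-cytidine kinase, and Unc5b (-0.832), a netrin receptor. Over all these genes the central 95% of r ran from -0.632 to 0.645, with a median of 0.02. Without the 2 livers farthest from the median of Coq8a, the 8 values kept their signs and lay between 0.805 and 0.868 for the positive and -0.873 and -0.824 for the negative genes. The signs were the same in each group, but the size of r differed. Ddc was at 0.993 in control females and 0.518 in LKO females, Cldn1 at 0.957 and 0.56 and Lap3 at 0.948 and 0.565. Psen2 was at 0.912 and 0.658 and Dazap2 at 0.889 and 0.86. In LKO males Nceh1 was at -0.591, Uck1 at -0.522 and Unc5b at -0.847.

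Psen2 is also a neighbour of Coq8a, on chromosome 1 from 180054569 to 180091003 on the same strand, 27.4 kb away, a fact looked up after the ranking was seen. Psen2 ran from 177.2 to 284.4 CPM in control females, median 202.4, and from 135.7 to 170.7 in LKO females, median 146.5. These groups did not overlap, and the log2 difference was -0.53 (SE 0.12, edgeR adjusted p = 0.0384). Psen2 passed in 5 of the 12 fits that left out 1 library, with adjusted p from 0.00157 to 0.0987 over 19 alternatives. In males Psen2 was at -0.43 (SE 0.14, edgeR adjusted p = 0.28). Of the 13 listed genes within 250 kb, 5 including Coq8a were tested in both sexes, and the other 3, Cdc42bpa, Gm37336 and Itpkb, had an r with Coq8a between -0.05 and 0.0694. Their female log2 differences were -0.09 (edgeR adjusted p = 0.634), -0.29 (0.731) and -0.19 (0.534). Unc5b was higher in LKO females, at 1.20 (SE 0.23, edgeR adjusted p = 0.0177), and at 0.17 (SE 0.30, edgeR adjusted p = 0.871) in males. It passed in 10 of 12 female fits that left out 1 library.

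**Figure D5:**
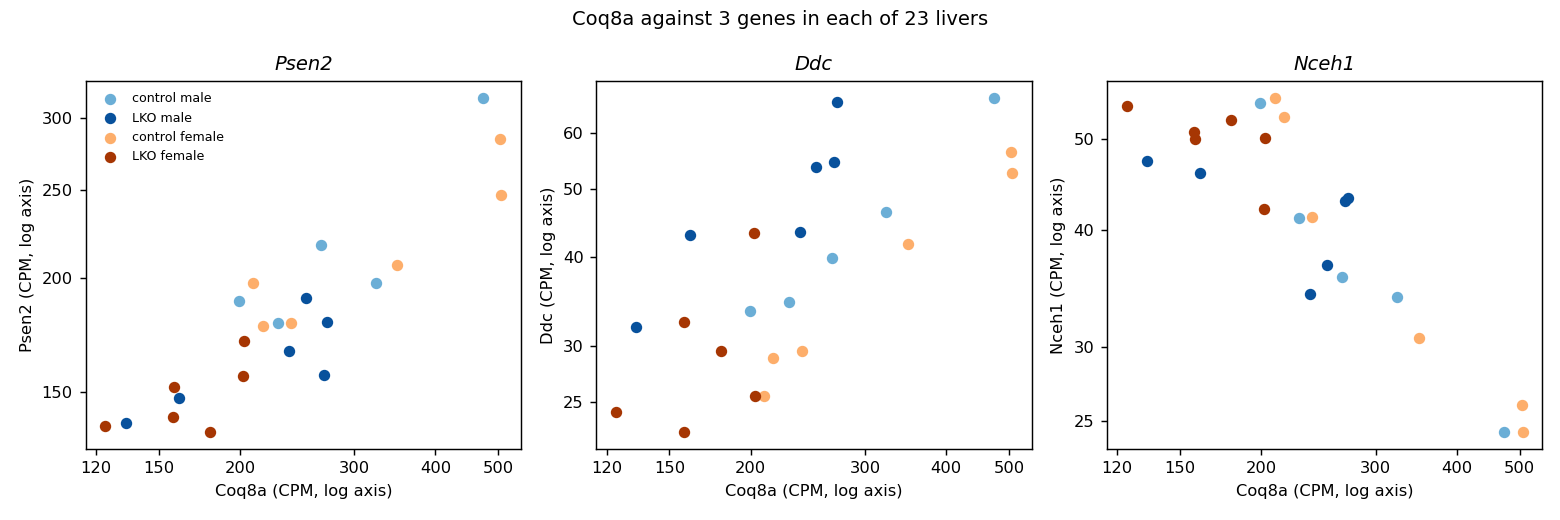
Coq8a against Psen2, Ddc and Nceh1 in each of 23 livers, in CPM on log axes and coloured by group. Psen2 and Ddc rise along Coq8a and Nceh1 runs against it, with r of 0.844, 0.897 and -0.868 after subtraction of group means.

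The steps before and after the ring were described from lists of related genes, for which the genotype test applies. The tail synthase subunits Pdss1 and Pdss2 and the second CoQ-binding START protein Coq10b showed 0 of 3 past the threshold between genotypes in either sex with edgeR or DESeq2, and 0 of 3 at an unadjusted p under 0.05. In males DESeq2 left some genes of these lists without an adjusted p, and they are not counted. Coq10b stood at 0.15 (SE 0.14, edgeR adjusted p = 0.667) in females and 0.21 (SE 0.19, edgeR adjusted p = 0.693) in males. Between the sexes, Pdss2 was lower in females at -0.29 (SE 0.08, edgeR adjusted p = 0.0085), with 12 of 12 females below the male mean, and Coq10b was higher at 0.48 (SE 0.12, edgeR adjusted p = 0.00556), 76.5 ± 14.6 CPM (SD, n = 12) against 55.5 ± 13.7 (SD, n = 11). Both missed the threshold in LKO livers alone, and leaving out any 1 of the 23 libraries kept both past it. Pdss1 was near 2 CPM in all groups and did not pass, at -0.12 (SE 0.18, edgeR adjusted p = 0.652). Per length, Coq10a made up 61% ± 5.43 (SD, n = 5) of Coq10a plus Coq10b in control males and 49.9% ± 6.4 (SD, n = 6) in control females.

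The mevalonate list runs from acetyl-CoA to the prenyl diphosphates that form the tail. Of its genes, 1 of 8 tested was lower and 0 higher in LKO females. That gene was Pmvk, phosphomevalonate kinase, with 40.9 ± 13.6 CPM (SD, n = 6) in controls and 23.3 ± 3 (SD, n = 6) in LKO, at -0.81 (SE 0.19, edgeR adjusted p = 0.0486). It passed in 1 of the 12 fits that left out 1 library, the one without control female 3. All 8 female differences were negative, with a median of -0.53 against 0.01 for all genes tested. In males 0 of 9 passed with edgeR (1 at an unadjusted p under 0.05) and 0 of the 6 with an adjusted p in DESeq2, 8 were negative and the median was -0.33, and Pmvk was at -0.67 (SE 0.25, edgeR adjusted p = 0.314).

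Among genes that pass electrons to CoQ, 0 of 14 tested passed between genotypes in either sex with edgeR or DESeq2, and 3 in females and 2 in males had an unadjusted p under 0.05 in edgeR. The lowest p in females was that of Aifm2, a CoQ oxidoreductase that guards against lipid peroxidation, at 0.27 (SE 0.10, edgeR adjusted p = 0.212). In males it was that of Etfb, a subunit of the flavoprotein that carries electrons from fatty acid oxidation, at -0.28 (SE 0.11, edgeR adjusted p = 0.343). Of complex III, which oxidises reduced CoQ, 0 of 9 passed in either sex with edgeR (0 in females and 3 in males at an unadjusted p under 0.05). With DESeq2 0 passed in females and 1, Uqcrq, was lower in males. In males all 9 differences were negative, with a median of -0.18, and Uqcrq had the lowest p, at -0.35 (SE 0.09, edgeR adjusted p = 0.261). In females the median of complex III was -0.01, and Uqcrfs1 had the lowest p, at 0.10 (SE 0.09, edgeR adjusted p = 0.64). Of the accessory genes, 0 of 7 tested passed in either sex with edgeR or DESeq2 (0 in females and 1 in males at an unadjusted p under 0.05), with Adck1 lowest in p in females at -0.14 (SE 0.08, edgeR adjusted p = 0.439) and Pptc7, a mitochondrial phosphatase, in males at 0.51 (SE 0.22, edgeR adjusted p = 0.367). Over these lists Pmvk was the 1 gene that passed between genotypes in edgeR.

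Features of the gene models bear on single values. Coq8a overlaps the end of Cdc42bpa on the opposite strand by 366 bases, with mean counts of 4102 for Coq8a and 308 for Cdc42bpa. Coq4 overlaps Trub2 on the opposite strand by 1010 bases, with mean counts of 170.8 and 153. Of the 50-base stretches of Coq4 transcripts, 25.7% also occur in other genes. Coq8b, with a mean count of 395.7, overlaps 2 genes of long noncoding RNA. These are Gm44641 on the same strand by 5775 bases (mean count 0.522) and Gm15567 on the opposite strand by 8670 bases (1.83). Coq2, with a mean count of 926.9, overlaps Gm15777 on the opposite strand by 4282 bases (0.783). The part of these overlaps in the counts was not tested. Coq3, Coq5, Coq7 and Coq10a overlap no listed gene. The libraries keep the strand, and whether the counting used it is not given in the sources used here.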

How the data were processed

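Liver RNA of 23 mice was enriched for polyadenylated RNA and made into strand-keeping libraries, per the labels' protocols. HISAT2 2.0.5 and mm39 are named in the submitters' processing notes; the counter is not given in the sources used here. The authors deposited raw counts per gene, normalized counts (a count signal divided by a size factor, per the deposited values), FPKM, log2 fold changes and p-values in 1 table per sex. Only the counts and the FPKM were used here. All count columns were mapped to samples by name.

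Counts were fitted with edgeR 4.0.16 in R 4.3.3: filterByExpr, TMM scaling, quasi-likelihood test, Benjamini-Hochberg adjustment over all genes tested, threshold 0.05. Genotypes were compared within each sex, and sexes in a fit of 4 group means over the genes of both tables. SE is the log2 difference divided by the square root of F. CPM are TMM-scaled over all 23 libraries, and a pseudocount of 1 was added before log2 for correlations. The fits were tested on simulated data. Libraries of a group differed by 13 to 139 in chi-square per gene over 55 pairs, so none was counted as a duplicate.

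The genes and lists were chosen with earlier results of these data known. Genes named are the 10 of the set, Cpt1a, Pdss1, Pdss2, Coq10b, from each list the gene of lowest p per sex and those called, and the 5 genes most and 3 least correlated with Coq8a. RefSeq promoter windows came from GRCm38.p6, with none found for Coq5 and Coq8b. Alternatives were RLE factors, library size alone, other count filters, DESeq2 1.42.0, a replicate block, other sets of samples, levels per length from the counts, and leaving out each library.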

Additional observations from a re-analysis of the deposited data

Results flagged for a closer look

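Of the 40 groups of values (10 genes in 4 groups), 4 had a library set apart from the rest of its group by Dixon's ratio of the gap to the range; chance gives about 1 in 20. For Coq2, control male 4 had 52.1 CPM, where the next lowest had 60.7 (gap over range 0.719). Without it the female minus male difference of Coq2 was -0.31 (edgeR adjusted p = 8.82e-05), and the male genotype difference fell from 0.05 to -0.00144. The same liver had the highest Coq8a of the males. For Coq2, control female 5 had 42.4 CPM, where the next had 48.8 (0.732), and without it the sex difference was -0.27 (edgeR adjusted p = 0.000555). For Coq7, LKO female 3 had 41.4 CPM, where the next highest had 33.9 (0.642). Without it the female genotype difference of Coq7 was 0.20 and the sex difference -0.71 (edgeR adjusted p = 1.93e-07). For Coq8b, control female 6 had 20.6 CPM, where the next had 25.3 (0.768), and without it the female genotype difference was -0.12. Control females 5 and 6 were also the 2 highest in Coq8a.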

How the results depend on the processing

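Of 310 alternative values of the tested sex differences of the 10 genes, 306 kept their side of the threshold. The 4 others were sex differences in 1 genotype alone: Coq2 in LKO (-0.25) and Coq3 in controls (-0.27) and in LKO (-0.08) no longer passed, and Coq4 in controls (-0.38) did. The genotype differences of the 10 genes, which are descriptions, changed sign in 14 of 370 alternatives, Coq8a in none. The count of 1 of 10 past the threshold in females was 0 in 10 of 19 alternatives, 9 of them among the 12 that left out 1 library and the other the fit of all 23 samples. The number of genes past the threshold between female genotypes was 194, against 559 with DESeq2, 94 in the fit of all 23 samples and 87 to 233 when leaving out 1 library. A count below the main one by over 1.5 times came from dropping control female 1 (116), 5 (87) or 6 (111) or LKO female 2 (88), 3 (96) or 4 (104). In males it was 1, against 2 with library size alone, 2 without a filter, 3 with at least 10 counts in every sample, 112 with DESeq2, 5 with all 23 samples and 1 to 2 when leaving out 1 library. Between the sexes it was 4229, against 2466 in controls and 1708 in LKO, and 3843 to 4471 when leaving out 1 library. With the replicate number as a block, 334 genes passed in females, 2 in males and 3887 between the sexes, and Coq8a stood at -0.90 in females. The labels do not say that a number marks a shared animal or day. Over 10612 genes, same-numbered livers correlated at -0.0287 to 0.211 in females (over 0.1 in 5 of 6 pairs, own number highest in 4 of 6) and -0.439 to 0.438 in males (over 0.1 in 1 of 5, own highest in 1 of 5). Not every pair was over 0.1, so the numbers were not taken to pair the livers, and in females the values leave a partial pairing possible. The cause of these moves was not tested.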

Other observations

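A list of 9 regulators of mitochondrial and sterol genes was also measured. Between genotypes 0 of 9 passed in either sex with edgeR or DESeq2, and 1 in each sex had an unadjusted p under 0.05. The lowest p was that of Srebf2, which drives sterol synthesis genes, in females, at -0.24 (SE 0.09, edgeR adjusted p = 0.179), and that of Gabpa, an ETS factor of mitochondrial genes, in males, at -0.20 (SE 0.09, edgeR adjusted p = 0.382). Between the sexes 2 of 9 were higher and 1 lower in females, a share close to the 29.2% of all 14503 genes that passed. Ppargc1a, a coactivator of mitochondrial genes, was higher at 1.01 (SE 0.18, edgeR adjusted p = 0.000207) and Gabpa at 0.27 (SE 0.05, edgeR adjusted p = 0.000583). Pparg, a driver of lipid storage genes, was lower at -0.62 (SE 0.18, edgeR adjusted p = 0.0109). Leaving out any 1 of the 23 libraries kept all 3 past the threshold.

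Among genes that pass electrons to CoQ, 4 of 14 were higher and 1 lower in females, a share close to the 29.2% of all 14503 genes. Sqor, which oxidises sulfide, was at 0.38 (SE 0.07, edgeR adjusted p = 0.000296) and the proline dehydrogenase Prodh at 0.35 (SE 0.08, edgeR adjusted p = 0.00207). Aifm2 was at 0.27 (SE 0.08, edgeR adjusted p = 0.0138) and Prodh2 at 0.24 (SE 0.09, edgeR adjusted p = 0.0441), the last passing in 5 of 23 fits that left out 1 library. Gpd2, the mitochondrial glycerol phosphate dehydrogenase, was lower at -0.39 (SE 0.10, edgeR adjusted p = 0.00453). Of the mevalonate list, Fdps, which makes farnesyl diphosphate, was at -1.53 (SE 0.46, edgeR adjusted p = 0.0148). Its levels were 0.906 ± 1.1 CPM (SD, n = 12) in females and 2.26 ± 1.92 (SD, n = 11) in males. Fdps missed the count filter in the fit of females alone and in the sex fit of LKO livers. In controls it was at -1.12 (SE 0.70, edgeR adjusted p = 0.287), so nothing is read from the value over both genotypes. Sex and table cannot be told apart in these values.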
